A study of Homo sapiens with 18 samples.

Results

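The beta-globin locus was examined through the 4 of its genes that were followed here, out of 13051 transcripts in the table of readthrough reads, each of which represents 1 gene. The members were chosen by gene and transcript and not by a rule on their values, though earlier results of these data were known. They were HBE1 (ENST00000380237), HBG1 (ENST00000330597), ENSG00000239920 (ENST00000380259), whose counted exon lies inside HBG2, and HBD (ENST00000292901). Over all 18 libraries they held 2768, 4159, 3747 and 117 counted reads. HBE1, HBG1 and ENSG00000239920 had reads in all 18 libraries and HBD in 12.

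The libraries were PacBio long reads of nascent RNA from the chromatin of K562, an established CML cell line that carries the Bcr-Abl1 kinase and can take on erythroid features. Each of 6 groups had 3 biological replicates. CTRL and CTRLim were untreated cells, and CTRLim was the control prepared with the imatinib libraries. IM 1h and IM 18h received 1 µM imatinib, an inhibitor of Bcr-Abl1, for 1 or 18 h, JTE 1h received 5 µM JTE-607, an inhibitor of the CPSF73 endonuclease that cleaves pre-mRNA at its 3′ end, for 1 h, and KCl 45min received 110 mM KCl as hyperosmotic shock for 45 min. All groups thus share the 1 cell line, its BCR-ABL1 fusion and its karyotype, and no group holds primary erythroid cells.

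The beta-globin genes lie in a row in the order in which they are used in development. HBE1 encodes the embryonic epsilon chain, HBG2 and HBG1 the fetal gamma chains, HBD the minor adult delta chain and HBB the major adult beta chain, each of which pairs with alpha-type chains in hemoglobin. All are driven by a shared upstream enhancer, the locus control region, which erythroid factors such as GATA1, TAL1 and KLF1 bind. K562 cells are known for embryonic and fetal globin expression, with little HBB. When Pol II passes the polyadenylation signal of a gene, the transcript is normally cleaved nearby, and nascent RNA that extends further is transcriptional readthrough.

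On GRCh38 the genes lie on the minus strand of chromosome 11. The last exon of the counted HBE1 transcript (exon 5) spans 5268345 to 5268597, that of HBG1 (exon 3) 5248269 to 5248487, that of ENSG00000239920 (exon 8) 5254392 to 5254514, and that of HBD (exon 3) 5232678 to 5232798. A read was counted when it overlapped this exon and its 3′ end lay at least 100 nt past it. The ends of the genes are shown because they mark what a counted read has passed. Capitals mark the polyadenylation signal AATAAA, searched on the transcribed strand in the last 50 bases, where 433 of the 749 transcripts of the table on chromosome 11 hold it (57.8%).
HBE1, chr11:5268346-5268375, 3′ UTR: AATAAAgtacattttcttcagtaatcaaaa
HBG1, chr11:5248269-5248298, 3′ UTR: AATAAAtctattctgctgagagatcacaca
HBG2, chr11:5253188-5253217, 3′ UTR: AATAAAtctattctgctaagagatcacaca
HBD, other annotated end, chr11:5232829-5232858, 3′ UTR to 5232838 and bases past that end: AATAAAgaatgttcagctcaacttcctgat
HBD, counted end, chr11:5232678-5232707: tacaaggcattaatgggtgacacttctacc
ENSG00000239920, counted end, chr11:5254392-5254421, exon 2 of HBG2: ggcacatggcaagaaggtgctgacttcctt

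The HBE1 and HBG1 rows thus count reads that passed a signal located 25 and 24 bases before the annotated end. The HBD row counts reads that ended at least 260 bases past the other annotated HBD end, which has the signal 15 bases before it. The ENSG00000239920 row is different in kind. Its last exon is part of exon 2 of HBG2 (5254292 to 5254514), it has no AATAAA in its last 50 bases, and its reads count from 5254292, the last base of that exon, which is 1104 bases before the end of HBG2. A nascent HBG2 transcript that ended in intron 2 or exon 3 could therefore be counted in this row, and the row is not a measure of readthrough past HBG2. Among the transcripts of the table that matched the annotation in this region, none was named HBG2.

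HBG1 and HBG2 are near-identical paralogs. Exon 1 and intron 1 were identical, exon 2 was 99.6% identical (1 mismatch of 223 bases), intron 2 96.6% and exon 3 98.2%. In the first 100 bases past their ends 85.1% of aligned positions were identical, and in the first 1000 bases 63.6%. These first 100 bases are shown because a read counted for HBG1 must cross them, and capitals mark bases that differ or have no partner in the alignment.
HBG1, chr11:5248169-5248268: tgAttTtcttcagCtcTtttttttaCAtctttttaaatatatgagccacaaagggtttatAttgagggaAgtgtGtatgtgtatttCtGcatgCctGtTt
HBG2, chr11:5253088-5253187: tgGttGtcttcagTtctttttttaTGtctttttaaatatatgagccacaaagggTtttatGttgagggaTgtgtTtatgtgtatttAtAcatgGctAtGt
Reads of HBG1 that cross this stretch carry differences from HBG2, whereas a read counted for ENSG00000239920 that ends soon after exon 2 carries few, so its assignment is less certain.

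**Figure D1:**
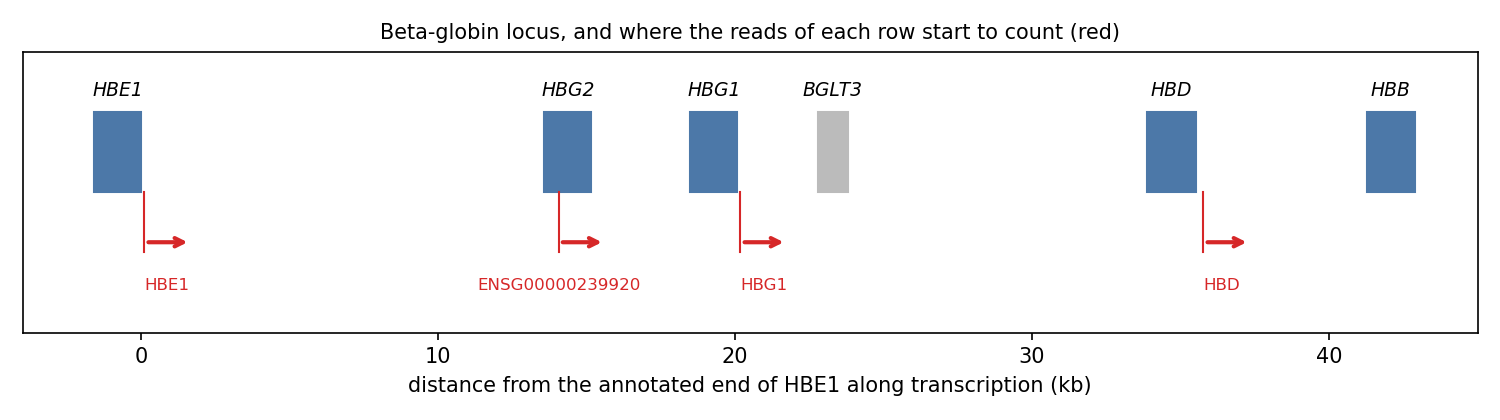
Map of the beta-globin locus to scale, with the distance in kb from the annotated end of HBE1 along the direction of transcription on the x axis, blue boxes for globin genes, a grey box for the noncoding gene BGLT3, and red lines where the reads of each row start to count. The line of ENSG00000239920 falls inside HBG2, 1104 bases before the end of that gene, while the lines of HBE1, HBG1 and HBD fall past the ends of their genes.

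The next gene starts 13564 bases past the end of HBE1 (HBG2), 2723 bases past HBG1 (BGLT3) and 5607 bases past the counted end of HBD (HBB).

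Counts were expressed as reads per 1000000 library reads (RPM), where the library reads are those the study lists without polyadenylated reads and splicing intermediates. These numbered 229855 to 1349556 per library, and 8422 to 57982 of them were readthrough reads of any gene. A higher RPM arises from more transcription as well as from less cleavage, and in bulk samples more RNA per cell cannot be told apart from more cells with that RNA. The libraries fall into 2 sets of 9 by how many of their raw reads mapped, 40.5% to 44.1% in CTRL, KCl 45min and JTE 1h and 84.3% to 91.6% in CTRLim, IM 1h and IM 18h, so each treatment was compared with the control of its own set. CTRLim replicate 1, the smallest library, and JTE 1h replicate 1, with 3.06% readthrough reads against 5.40% and 5.05% in the other two, stood apart, and the tests of HBE1, HBG1 and ENSG00000239920 are given with and without them. The study also lists shorter median reads for CTRL replicates 1 and 2, KCl 45min replicate 1 and JTE 1h replicate 1 than for the other libraries of that set. Read length was thus unbalanced between CTRL and both treatments, and its part in those comparisons was not tested. The 6 erythroid markers reported here (GATA1, KLF1, TAL1, EPOR, TFRC and ALAS2) were in the table, and of 8 markers of other blood lineages 1 was, with 1 read. Being in the table does not show expression, since 1200 of its transcripts had no read. Together the 6 had 45 reads in CTRL and 58 in CTRLim, with 0 for ALAS2 in both, so this is no test of cell identity.

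HBE1 stood at 80.4, 82.8 and 46.4 RPM in CTRL and at 343.7, 181 and 252 RPM in CTRLim. It stood at 312, 316 and 331 RPM in IM 1h and at 437, 433 and 466 RPM in IM 18h. In JTE 1h it stood at 43.5, 64.2 and 61.9 RPM and in KCl 45min at 19.5, 12.7 and 5.68 RPM. In the order of the means, KCl 45min lay below JTE 1h without overlap, JTE 1h overlapped CTRL, CTRL lay below CTRLim without overlap, CTRLim overlapped IM 1h, and IM 1h lay below IM 18h without overlap. The untreated groups thus differed in HBE1, at 69.9 ± 20.4 RPM in CTRL and 259 ± 81.4 RPM in CTRLim (SD, n = 3 each), and here the library set and the cells cannot be told apart.

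HBG1 stood at 219, 266 and 302 RPM in CTRL and at 426, 217 and 262 RPM in CTRLim, so the untreated groups overlapped. It stood at 346, 335 and 303 RPM in IM 1h and at 713, 647 and 684 RPM in IM 18h. In JTE 1h it stood at 237, 183 and 107 RPM and in KCl 45min at 188, 66.9 and 36.0 RPM. Only IM 18h lay apart from its neighbour in the order of the means, above all 15 other libraries.

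ENSG00000239920 stood at 189, 341 and 275 RPM in CTRL and at 369.8, 226 and 191 RPM in CTRLim. It stood at 325, 337 and 270.3 RPM in IM 1h and at 601, 576 and 640.2 RPM in IM 18h. In JTE 1h it stood at 155, 193 and 112 RPM and in KCl 45min at 117, 31.9 and 15.2 RPM. Here too only IM 18h lay apart from its neighbour in the order, and CTRLim, CTRL and IM 1h overlapped.

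HBD had 21, 38 and 41 reads in the IM 18h libraries, or 22.3, 29.7 and 30.4 RPM. In IM 1h it had 3, 4 and 1 reads, in CTRL 0, 1 and 3, in KCl 45min 0, 1 and 2, in JTE 1h 1, 0 and 0, and in CTRLim 0, 0 and 1. The IM 18h libraries lay above all others, the highest of which was CTRL replicate 3 at 11.6 RPM. A count of 0 allows up to 13.1 RPM in CTRLim replicate 1 and 5.55 RPM in replicate 2, as far as counting error goes. HBB, next to HBD, had 6 reads in all, 2 in CTRL and 4 in IM 18h.

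**Figure D2:**
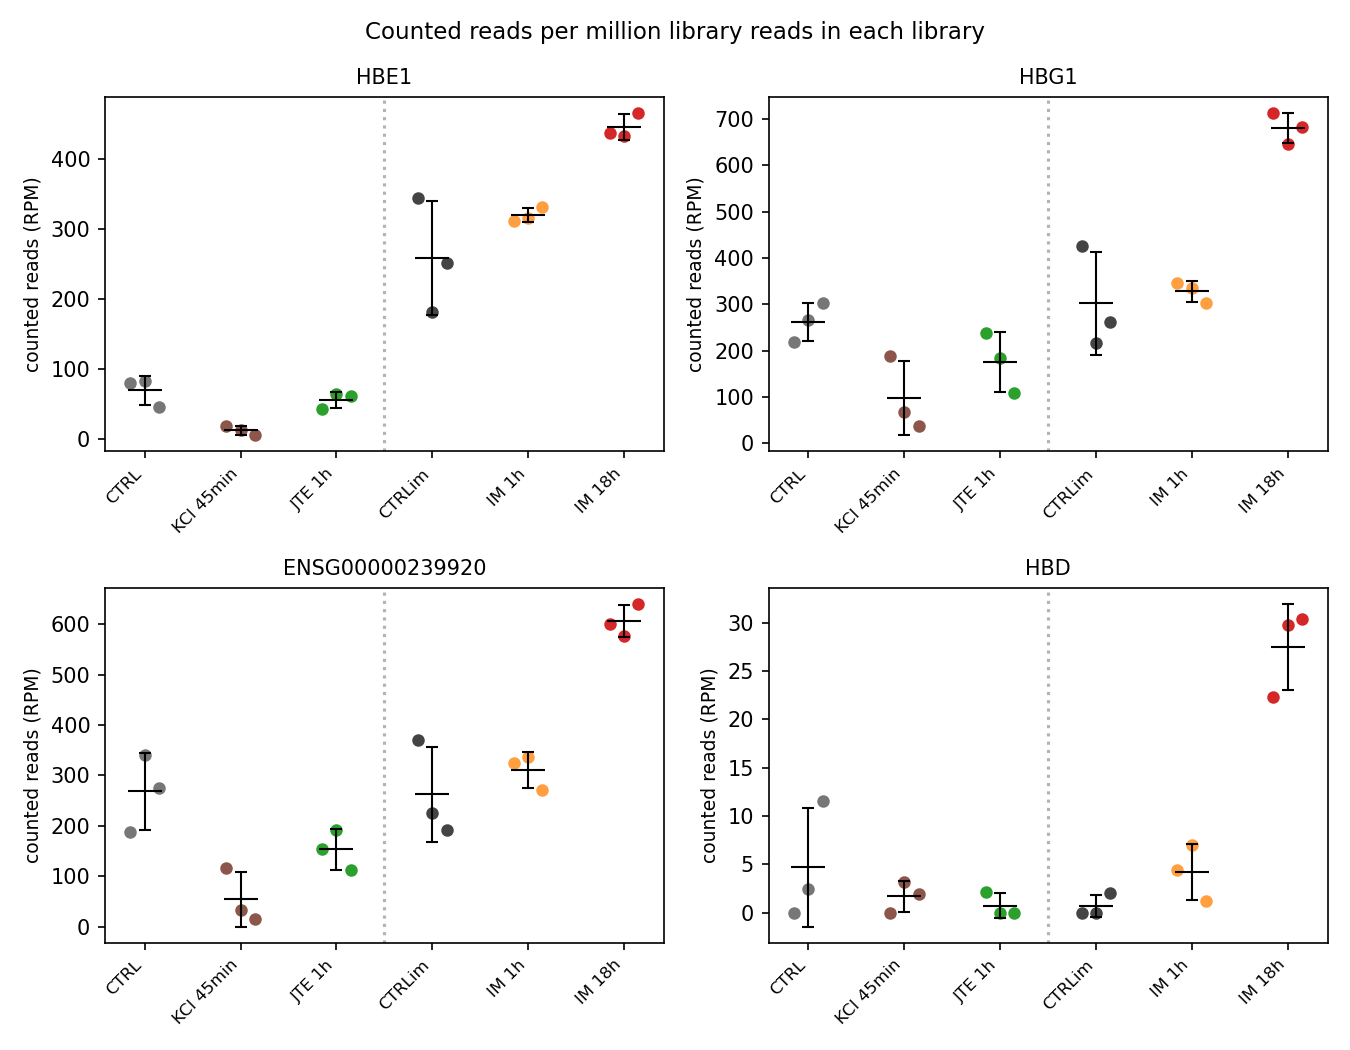
Counted reads per 1000000 library reads (RPM, y axis) of each member in each of the 18 libraries, by group, with the mean (long line) and SD (error bar) of 3 replicates and a dotted line between the 2 library sets. The 3 IM 18h libraries are the highest for every member, and HBE1 differs between the untreated groups, at 46.4 to 82.8 RPM in CTRL and 181 to 343.7 RPM in CTRLim.

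Whether 18 h of imatinib changed the locus was asked first against CTRLim. All 4 members were higher in IM 18h, and none of their groups overlapped. HBE1 rose 1.76-fold, from 259 ± 81.4 to 445 ± 18.0 RPM (SD, n = 3 each), and its log2 fold change was 0.82 (standard error, SE, 0.22, adjusted p = 0.00664, edgeR's quasi-likelihood test, Benjamini-Hochberg). HBG1 rose 2.32-fold, from 302 ± 110.3 to 681 ± 33.2 RPM, and its log2 fold change was 1.21 (SE 0.22, adjusted p = 6.31e-05 in the same edgeR test). ENSG00000239920 rose 2.38-fold, from 262 ± 94.8 to 606 ± 32.3 RPM, and its log2 fold change was 1.25 (SE 0.22, adjusted p = 4.73e-05 in the same edgeR test). HBD was at 100 reads against 1, a ratio per library read of 35.4 (exact 95% interval 6.21 to 1412, counting error only), with an adjusted p of 5.15e-06 in the edgeR test. HBD reached the minimum of 30 reads for a test only through its IM 18h reads, so its call adds no support. For comparison, 14.1% of the 1386 transcripts tested were called, 5.19% as higher, and in 13.3% the IM 18h libraries all lay above CTRLim. The median log2 fold change over all of them was -0.01.

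Without CTRLim replicate 1 the values were 1.04 for HBE1, 1.51 for HBG1 and 1.54 for ENSG00000239920, all called. In that fit 170 of 1320 transcripts tested were called, 68 of them as higher, and the median was 0.06. The calls of HBG1 and ENSG00000239920 held under every alternative that was run, whereas that of HBE1 did not. The value of HBE1 was 0.60 without CTRLim replicate 2 (adjusted p = 0.137 in the edgeR test), 0.81 without CTRLim replicate 3 (adjusted p = 0.0573 in the edgeR test), and 0.80 with all 18 libraries in 1 edgeR fit (adjusted p = 0.176).

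After 1 h of imatinib no member was called against CTRLim, either by edgeR or by DESeq2, and none had an unadjusted p under 0.05 in edgeR's test, while 1.52% of 988 transcripts tested were called. HBE1 had a log2 fold change of 0.37 (95% interval -0.00105 to 0.73, adjusted p = 0.371 in edgeR's test), HBG1 of 0.19 (-0.17 to 0.55, adjusted p = 0.693) and ENSG00000239920 of 0.31 (-0.05 to 0.68, adjusted p = 0.441). The median over all tested transcripts was 0.19, and the IM 1h libraries lay within the range of the CTRLim libraries, whose replicate 1 was the highest for these 3 members. This outcome rested on that library. With CTRLim replicate 1 left out the changes on the log2 scale were 0.57 for HBE1, 0.45 for HBG1 and 0.56 for ENSG00000239920, with adjusted p-values of 9.91e-04, 0.0178 and 0.00152 in the edgeR test. In that fit 22 of 905 transcripts tested were called, 7 of them as higher, and the median over all of them was 0.27. HBD had 8 reads against 1 and was not tested.

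IM 18h was then compared directly with IM 1h, which tests whether the level under imatinib differed between the times. Both times share the CTRLim control, so time in culture and the drug cannot be told apart in this comparison. All 4 members were higher at 18 h, with no overlap, against 18.3% of 1720 transcripts called, 4.19% as higher, and 8.49% in which the IM 18h libraries all lay above. HBG1 was 2.08-fold higher (log2 fold change 1.06, SE 0.10, adjusted p = 2.44e-17, edgeR's quasi-likelihood test, Benjamini-Hochberg), and ENSG00000239920 was 1.95-fold higher (0.97, SE 0.10, adjusted p = 1.73e-14). HBE1 was 1.39-fold higher, from 319.7 ± 10.3 to 445 ± 18.0 RPM (SD, n = 3 each), and its log2 fold change was 0.48 (SE 0.10, adjusted p = 1.89e-04 in the edgeR test). HBD was at 100 reads against 8, a ratio per library read of 7.18 (exact 95% interval 3.51 to 17.1), again tested only through its IM 18h reads (adjusted p = 6.49e-07 in the edgeR test).

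The median of all tested transcripts was -0.30 in this comparison, and relative to it HBG1 lay 1.35, ENSG00000239920 1.26 and HBE1 0.78 log2 units higher. TMM scaling, which centres the tested transcripts on no change, moved that median to -0.01 and the share of calls that were higher from 22.9% to 54.7%, and the members stayed higher and called. With all 18 libraries in 1 edgeR fit, which takes 1 estimate of the spread for all groups, HBE1, HBG1 and ENSG00000239920 were no longer called (adjusted p = 0.468, 0.0722 and 0.0978), at log2 fold changes of 0.48, 1.05 and 0.96. Pairs of IM 1h libraries differed little beyond counting error, with a chi-square per degree of freedom of 0.98 to 1.10, where 1 is counting error alone. It was 1.55 to 2.56 for pairs of IM 18h libraries. The small p-values of IM 18h against IM 1h rest partly on that narrow spread.

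**Figure D3:**
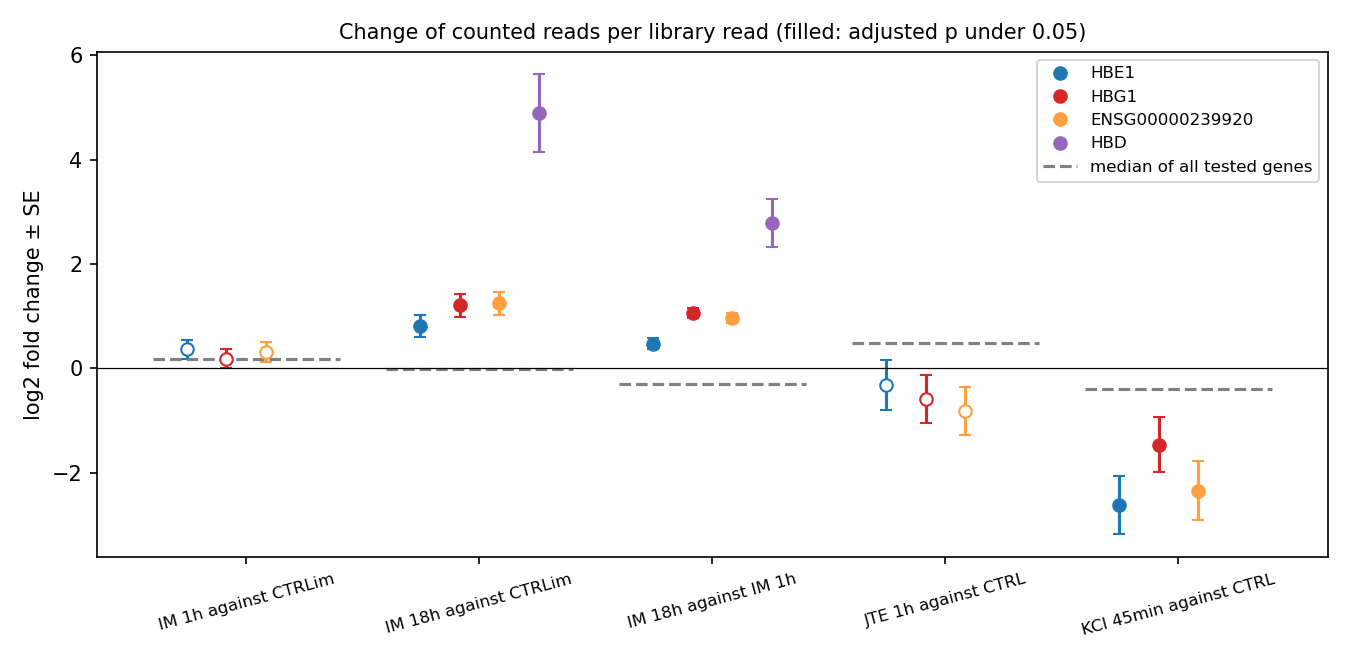
Log2 fold change (y axis) of counted reads per library read for each member in the 5 comparisons, with its standard error, filled where the adjusted p from edgeR was under 0.05, and a dashed line at the median of all tested transcripts. All members lie above the median in both comparisons of IM 18h and below it with JTE-607 and KCl, where HBD was not tested.

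JTE-607, the inhibitor of the cleavage endonuclease, was the study's positive control, a treatment meant to raise readthrough at some genes. None of the 3 members tested was called against CTRL by edgeR or DESeq2, and none had an unadjusted p under 0.05 in edgeR's test, where 0.103% of 969 transcripts were called. HBE1 was at 56.5 ± 11.3 RPM in JTE 1h and 69.9 ± 20.4 in CTRL, HBG1 at 176 ± 65.3 and 262 ± 41.4, and ENSG00000239920 at 153 ± 40.1 and 268 ± 76.5 (SD, n = 3 each), and the groups overlapped for all 3. The log2 fold changes were -0.31 (95% interval -1.25 to 0.62), -0.58 (-1.49 to 0.32) and -0.81 (-1.71 to 0.09), with adjusted p-values of 0.821, 0.647 and 0.511 in edgeR's test. The median of all tested transcripts was 0.49, so that the members lay 0.80, 1.07 and 1.30 log2 units below it. With JTE 1h replicate 1 left out the 3 values were -0.17, -0.86 and -0.83, and the adjusted p-values in the edgeR test were 0.777, 0.144 and 0.168. HBD had 1 read in JTE 1h and 4 in CTRL, too few for a test.

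Hyperosmotic shock with KCl went with fewer reads of the locus. All 3 members tested were lower in KCl 45min than in CTRL without overlap and were called, among 25.1% of 378 transcripts called, 20.9% as lower, and 28% in which the KCl libraries all lay below. HBE1 fell from 69.9 ± 20.4 to 12.6 ± 6.90 RPM (SD, n = 3 each), and its log2 fold change was -2.61 (SE 0.56, adjusted p = 2.31e-04, edgeR's quasi-likelihood test, Benjamini-Hochberg). ENSG00000239920 fell from 268 ± 76.5 to 54.6 ± 54.6 RPM, and its log2 fold change was -2.34 (SE 0.56, adjusted p = 0.00120 in the edgeR test). HBG1 fell from 262 ± 41.4 to 96.8 ± 80.1 RPM, and its log2 fold change was -1.46 (SE 0.53, adjusted p = 0.0311 in the edgeR test). Relative to the median of all tested transcripts, -0.39, the 3 members lay 2.22, 1.95 and 1.07 log2 units lower. KCl 45min replicate 1, which had the shortest median read length of its group, was the highest of its group for all 3. HBE1 had 18 reads in KCl 45min and 75 in CTRL, so it reached the minimum of 30 only through CTRL, and its call adds no support.

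The call of HBE1, which adds no support, held under every alternative run. That of HBG1 was lost when scaled by all readthrough reads (log2 fold change -0.99, adjusted p = 0.170 in the edgeR test) or by TMM (-1.13, adjusted p = 0.0794 in the edgeR test), with DESeq2 (-1.15, adjusted p = 0.0907), with no minimum of reads (-1.46, adjusted p = 0.187 in the edgeR test), and when any library but KCl 45min replicate 1 was left out (adjusted p between 0.0759 and 0.229 in the edgeR test), while without KCl 45min replicate 1 the log2 fold change was -2.40. That of ENSG00000239920 was lost without KCl 45min replicate 2 (-2.09, adjusted p = 0.0700 in the edgeR test), and without replicate 1 its log2 fold change was -3.62. TMM scaling moved the share of calls that were higher from 16.8% to 33.3%. HBD had 3 reads in KCl 45min and 4 in CTRL.

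The composition of the locus differed between groups as well. HBE1 made up 24.7%, 25.7% and 25.6% of the reads of the 4 members in IM 18h (exact Clopper-Pearson 95% intervals between 22.6% and 27.6%), 31.6%, 31.8% and 36.6% in IM 1h (between 27.9% and 40.2%), and 30.2%, 29.1% and 35.6% in CTRLim (between 24.3% and 40.9%). All IM 18h libraries lay below those of both other groups. The share was 25.3% ± 0.572 in IM 18h, against 33.3% ± 2.84 in IM 1h and 31.6% ± 3.51 in CTRLim (SD, n = 3 each), a difference of -7.99 percentage points from IM 1h and -6.31 from CTRLim (-7.04 without CTRLim replicate 1). Both reach the smallest p of 0.1 that 3 libraries against 3 allow (two-sided exact permutation test, adjusted p = 0.333 over 10 tests of shares). In the other library set HBE1 made up 11.9% ± 4.58 in CTRL, 15.5% ± 6.07 in JTE 1h and 8.93% ± 2.63 in KCl 45min (SD, n = 3 each), and these groups overlapped. The counted stretches of the rows differ in kind, so these shares compare groups and not the genes.

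HBG1 and ENSG00000239920 kept a like proportion in most groups. HBG1 made up 53.5% ± 4.45 of the reads of the pair in CTRLim, 51.4% ± 1.48 in IM 1h and 52.9% ± 1.30 in IM 18h, and 49.96% ± 5.40 in CTRL and 52.7% ± 6.81 in JTE 1h (SD, n = 3 each), with overlap in all 4 of these comparisons. In KCl 45min the share was 61.6%, 67.7% and 70.4%, above the 53.7%, 43.8% and 52.3% of CTRL. The difference was 16.6 percentage points (two-sided exact permutation test, p = 0.1, adjusted p = 0.333), with 125 reads or fewer of the pair in each KCl library.

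As a share of the readthrough reads of all genes, the 4 members together took 4.51% to 4.93% in IM 18h, 2.07% to 2.26% in IM 1h and 1.65% to 2.57% in CTRLim. They took 1.46% to 2.09% in CTRL, 0.557% to 1.43% in JTE 1h and 0.273% to 1.32% in KCl 45min.

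**Figure D4:**
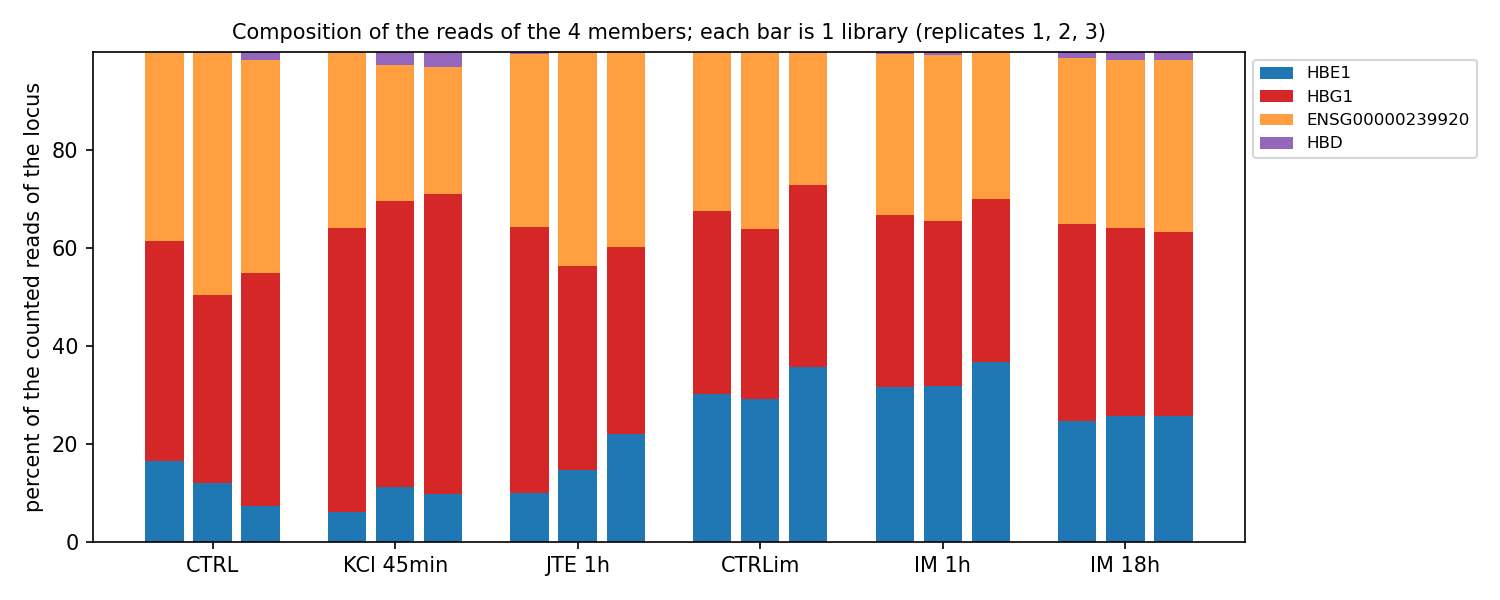
Percent of the counted reads of the 4 members (y axis) that fell to each member, with 1 bar for each of the 18 libraries in the order of replicates within a group. The HBE1 part lies at 24.7% to 25.7% in IM 18h and at 29.1% to 36.6% in CTRLim and IM 1h, and ENSG00000239920 takes 25.8% to 36.1% in KCl 45min against 38.6% to 49.3% in CTRL.

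The other globin genes were read from a list of 8, of which 5 were in the table. Against CTRLim, 2 of these were tested in IM 18h and 1 was called. This was AHSP, whose product is a chaperone that holds free alpha-globin, with 11, 15 and 18 reads in the IM 18h libraries and 0 in each CTRLim library. The exact 95% interval of its ratio per library read starts at 4.05 (adjusted p = 4.15e-04 in edgeR's test). Against IM 1h, 3 were tested and 2 were called as higher, AHSP with 44 reads against 1 (ratio 25.3, exact 95% interval 4.31 to 1021) and HBA2, an alpha-globin gene, with 34 against 2 (ratio 9.77, 2.50 to 83.9, adjusted p = 0.00177 in edgeR's test). AHSP and HBA2 reached the minimum of 30 reads only through their IM 18h reads, so these calls, like that of HBD, add no support. The HBA2 reads were 2, 9 and 23 in the IM 18h libraries, so 1 library held most of them, and HBA2 has a near-identical copy, HBA1, with 2, 8 and 15. HBZ, the embryonic alpha-type gene, had 1 read in all. No median is given for so few genes, and none of the list had enough reads for a test in the other comparisons.

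Of 43 regulators of globin genes 42 were in the table, and 12 were tested in IM 18h against CTRLim (median log2 fold change 0.42, beside -0.01 over all transcripts tested). The 2 called, beside 14.1% of all transcripts tested (5.19% as higher), were IKZF1, the zinc-finger factor Ikaros, with a log2 fold change of 1.66 (adjusted p = 0.0139 in edgeR's test), and TAL1, a factor that binds the locus control region with GATA1, with 0.95 (adjusted p = 0.0231 in edgeR's test). TAL1 was at 56.8 ± 4.65 RPM in IM 18h, above the 24.5 ± 5.29 of IM 1h and the 29.4 ± 2.68 of CTRLim (SD, n = 3 each). The same 2 genes were the ones called among 13 tested against IM 1h (median 0.08, beside -0.30, and beside 18.3% of all transcripts called, 4.19% as higher), TAL1 with 1.19 (adjusted p = 9.36e-05) and IKZF1 with 1.10 (adjusted p = 0.0267 in edgeR's test). IKZF1, with 9 reads in CTRLim and 22 in IM 1h, reached the minimum only through its IM 18h reads, so its calls add no support. None of 11 was called in IM 1h, none of 7 in JTE 1h and none of 2 in KCl 45min. KLF1, the activator of adult globin, was at 9.53 ± 3.07 RPM in CTRLim and 13.2 ± 6.56 in IM 18h (SD, n = 3 each), and did not pass. MYB, which represses fetal globin indirectly, was at 3.23 ± 1.16 RPM in IM 18h, below all libraries of IM 1h at 9.04 ± 2.75 RPM (SD, n = 3 each, log2 fold change -1.36, adjusted p = 0.0635 in edgeR's test), and at 10.8 ± 1.98 RPM in CTRLim, where it had too few reads for a test. GATA2, with 15 reads in CTRLim and 6 in IM 18h, also had too few. It was at 14.4 ± 11.1 and 1.73 ± 0.351 RPM in these groups (SD, n = 3 each). The minimum of reads thus left GATA2 and MYB out against CTRLim and let IKZF1 in, so the median there does not describe the regulators as a whole.

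Heme is the prosthetic group of globin, and FECH and UROD of its synthesis were examined. FECH, which inserts iron, had 14, 15 and 12 reads in IM 18h against 2, 0 and 1 in CTRLim (ratio per library read 4.84, exact 95% interval 1.54 to 24.4, adjusted p = 0.0325 in edgeR's test), and the groups did not overlap. It too reached the minimum of 30 reads only through IM 18h, so the call adds no support. UROD, uroporphyrinogen decarboxylase, was at 219 ± 14.8 and 236 ± 116 RPM in these groups (SD, n = 3 each) and did not pass. In KCl 45min UROD fell from 193 ± 47.0 to 20.7 ± 8.72 RPM (SD, n = 3 each), a log2 fold change of -3.31 (adjusted p = 6.14e-06 in edgeR's test). Neither gene was called between the imatinib times, and UROD was called neither in IM 1h nor in JTE 1h.

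Within 500000 bases of the members the table held 18 other genes, HBB, olfactory receptor and TRIM genes among them. Those with enough reads were OR51B4, OR51B5 and OR51I1, olfactory receptor genes located 31069, 72641 and 170625 bases upstream of the start of HBE1. The counted HBE1 transcript, which spans 5268345 to 5505604, runs across all 3 of them. So does the counted ENSG00000239920 transcript (5254392 to 5678434), which also runs across HBE1. In IM 18h against CTRLim all 3 tested genes were called as higher (median log2 fold change 1.53, beside -0.01 and 5.19% of all transcripts called as higher), OR51I1 from 20.4 ± 8.75 to 53.0 ± 7.50 RPM (SD, n = 3 each, log2 fold change 1.50, adjusted p = 0.00141 in edgeR's test), OR51B5 with 2.05 (adjusted p = 0.00729) and OR51B4 with 1.53 (adjusted p = 0.0352 in edgeR's test). Their CTRLim reads summed to 23, 6 and 7, so all 3 reached the minimum of 30 only through IM 18h. Neither their calls nor their median therefore adds support. Against IM 1h only OR51B5 was called of these 3 (72 reads against 14, log2 fold change 1.57, adjusted p = 0.00363 in edgeR's test), again tested only through its IM 18h reads. OR51I1 was at 41.3 ± 23.1 RPM in KCl 45min and 38.3 ± 10.5 in CTRL (SD, n = 3 each), a log2 fold change of 0.09 (adjusted p = 0.926 in edgeR's test), whereas the 3 members tested fell. That difference itself was not tested.

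**Figure D5:**
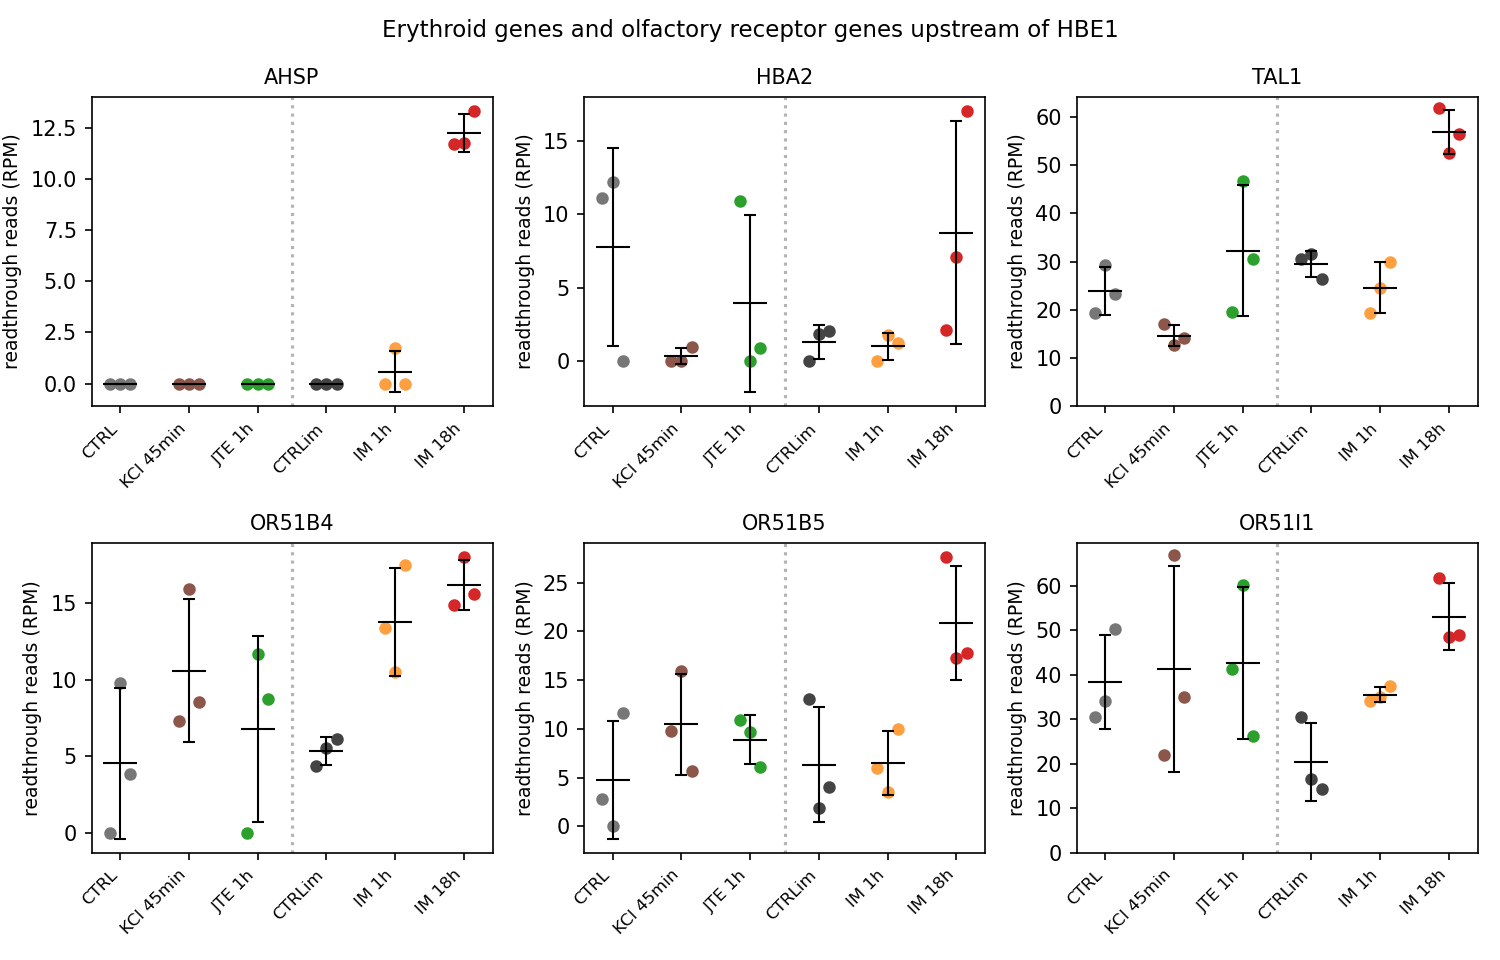
Readthrough reads per 1000000 library reads (RPM, y axis) of AHSP, HBA2 and TAL1 and of OR51B4, OR51B5 and OR51I1 in each of the 18 libraries, by group, with the mean and SD of 3 replicates and a dotted line between the 2 library sets. AHSP has 1 read outside IM 18h, the HBA2 reads of IM 18h spread from 2 to 23 per library, TAL1 is at 56.8 ± 4.65 RPM in IM 18h, and the IM 18h mean of every olfactory receptor gene is its highest.

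The erythroid markers were higher in IM 18h as a sum, but not each of them. The summed level of the 6 was 81.9 to 86.1 RPM in the IM 18h libraries, 52.0 to 58.6 in IM 1h and 44.7 to 47.9 in CTRLim, and 30.9 to 60.9 in CTRL, 34.8 to 60.3 in JTE 1h and 12.7 to 41.4 in KCl 45min. Most of the IM 18h sum was TAL1, at 56.8 RPM on average. Of TAL1 and KLF1, which had enough reads for a test in IM 18h against CTRLim, TAL1 was called, as given above. EPOR, the erythropoietin receptor, was at 5.33 RPM in IM 18h, 1.16 in IM 1h and 0.677 in CTRLim. In the same order of groups, GATA1 was at 2.57, 6.30 and 4.04 RPM, TFRC, the transferrin receptor, at 2.47, 9.03 and 2.59 RPM, and KLF1 at 13.2, 12.7 and 9.53 RPM, so the means of GATA1 and TFRC were not higher in IM 18h. ALAS2, the erythroid enzyme of the first step of heme synthesis, had 13 reads in IM 18h, 1 in IM 1h and 0 in the other groups. The part of these markers in the change of the members was not tested.

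The genes whose pattern was most like that of HBE1 and HBG1 were sought by Pearson's r of log2 RPM over the 18 libraries, centred within each library set, among 319 transcripts with at least 200 reads. These r are descriptions, since the libraries share treatments and depth. For HBE1 they included MRFAP1L1 (0.94), ENSG00000239920 (0.91), TUBB (0.89) and UFC1 (0.88), and HBG1 ranked 20 (0.81). For HBG1 they included ENSG00000239920 (0.96), HBE1 (0.81), MRPL14 (0.73) and MRFAP1L1 (0.71). MRFAP1L1 stood at 43.0 RPM in CTRLim, 50.7 in IM 1h and 40.6 in IM 18h, and thus was not higher in IM 18h, and it stood at 21.4 in CTRL and 3.00 in KCl 45min.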

How the data were processed

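Reads of nascent RNA from K562 cells were analysed in 18 libraries. The authors trimmed adapters with cutadapt, mapped reads with minimap2 to GRCh38.p14, collapsed duplicates by molecular identifier, removed polyadenylated and nonunique reads, and deposited raw counts of readthrough reads per gene, for the transcript that reaches furthest 3′. A read that overlapped several genes went to the gene it covered most. The counts are whole numbers without normalization, and reads within genes were not analysed here, so no readthrough index was computed.

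Library totals were the reads the study lists without polyadenylated reads and splicing intermediates (229855 to 1349556). Groups follow the sample labels, which call the 3 samples of a group biological replicates. Positions and names came from GENCODE on GRCh38, which matched 12704 of 13051 transcripts, and sequences from the hg38 genome. Transcripts with at least 30 reads over the 6 libraries of a comparison were tested with the quasi-likelihood functions of edgeR 4.0.16 (glmQLFit, then glmQLFTest; R 4.3.3), library totals as library sizes, and called at an adjusted p under 0.05 (Benjamini-Hochberg). Shares were compared by exact permutation. Intervals and limits for a count of 0 (3 reads) cover counting error only. The scripts were tested on simulated counts. Python 3.11.15, scipy 1.17.1 and Biopython 1.88 were used.

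Named were the members, the called genes of each list (at most 4 per list and comparison), and the 5 genes most like HBE1 and HBG1, with 0.5 reads added before the log. Some genes these rules name are not reported here. KLF1, MYB, GATA2, UROD, HBZ, HBB, HBA1 and ALAS2 were named after their values were seen. Members and lists were chosen with earlier results of these data known. Alternatives were DESeq2 1.42.0, TMM and total-readthrough scaling, mapped reads as totals, minimums of 10 and 0 reads, all libraries in 1 fit, a replicate block, and each library left out in turn.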

Additional observations from a re-analysis of the deposited data

Results flagged for a closer look

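For HBG1, HBE1 and ENSG00000239920 the level under imatinib differed between 1 h and 18 h, by the direct comparison of IM 18h with IM 1h (edgeR's quasi-likelihood test, Benjamini-Hochberg). No untreated control was matched to each time, so time in culture is part of this difference. On the log2 scale the difference was 1.06 for HBG1, 0.48 for HBE1 and 0.97 for ENSG00000239920. Without 1 library at a time these differences lay between 1.00 and 1.10 for HBG1, 0.44 and 0.51 for HBE1, and 0.87 and 1.03 for ENSG00000239920, and each was called, whereas none was called with all 18 libraries in 1 fit. For HBD the difference was 2.78, from 100 reads against 8. HBD reached the minimum of 30 reads only through IM 18h, so this value is a description and adds no support.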

How the results depend on the processing

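Depth limits HBD (117 reads in all), HBB (6) and HBZ (1). No member reversed its direction except HBG1 in IM 1h against CTRLim (-0.0157 without CTRLim replicate 2). Values below are log2 fold changes with edgeR's adjusted p unless another tool is named.

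In IM 1h against CTRLim, leaving out 1 library gave 0.14 to 0.57 for HBE1, -0.0157 to 0.45 for HBG1 and 0.12 to 0.56 for ENSG00000239920, of which the calls without CTRLim replicate 1 (0.57, 0.45 and 0.56) were the ones gained. In IM 18h against CTRLim, HBE1 lay between 0.60 and 1.04 without 1 library and at 0.80 with all 18 libraries in 1 fit (adjusted p between 2.78e-06 and 0.176 over the alternatives that kept all 6 libraries). That fit gave 0.48 for HBE1, 1.05 for HBG1 and 0.96 for ENSG00000239920 in IM 18h against IM 1h. HBG1 in KCl 45min was at -0.99 scaled by total readthrough reads (edgeR's adjusted p = 0.170), -1.13 with TMM (adjusted p = 0.0794), -1.15 with DESeq2 (adjusted p = 0.0907), -1.46 with no minimum (adjusted p = 0.187), and between -2.40 and -1.02 without 1 library. ENSG00000239920 in KCl 45min lay between -3.62 and -1.82 without 1 library.

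The share of HBG1 in its pair changed sign against CTRLim without CTRLim replicate 3 (0.162 points in IM 1h, 1.67 in IM 18h) and without IM 18h replicate 3 (0.115), and in JTE 1h without JTE 1h replicate 1 (-1.20) or CTRL replicate 2 (-0.355). Over the single libraries left out it lay between -4.28 and 0.162 in IM 1h, -2.77 and 1.67 in IM 18h, and -1.20 and 4.73 in JTE 1h.

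The number of transcripts called moved most. In IM 1h against CTRLim (15) it was 8 with DESeq2, 5 with all libraries, 9 with no minimum and 8 to 22 without 1 library (8 without CTRLim replicate 2 or 3, 9 without IM 1h replicate 1). The share of calls that were higher went from 13.3% to 0% with TMM. In IM 18h against CTRLim (196) it was 79, 113 with all libraries, and 116 to 189 (116 and 120 without CTRLim replicates 2 and 3). In IM 18h against IM 1h (315) it was 63 with DESeq2, 203 with TMM, 112 with all libraries and 174 to 273 (183 and 174 without IM 1h replicates 2 and 3). In JTE 1h (1) it was 0 with TMM, total readthrough scaling and no minimum, 30 with all libraries, and 0 to 69 (69 without JTE 1h replicate 1). In KCl 45min (95) it was 47 with DESeq2, 256 with a minimum of 10 and 41 to 75 (51 and 45 without CTRL replicates 1 and 2, 41 without KCl replicate 3).

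In the imatinib comparisons replicates with the same number did not deviate together (r between -0.029 and 0.099), so there they share only a number. Against CTRL, replicates 1 and 3 did so in part, with r of 0.25 and 0.24 in JTE 1h and 0.30 and 0.22 in KCl 45min. Replicate 2 did not (-0.01 and 0.04). By the median read lengths the study lists, replicate 1 was shorter than replicate 3 in CTRL, JTE 1h and KCl 45min alike. Replicate 2 was short in CTRL and long in JTE 1h and KCl 45min. Whether read length underlies these r was not tested. With the replicate number as a block no call of a member changed, and JTE 1h had 4 calls. In KCl 45min the block gave -1.73 for HBG1 (adjusted p = 6.75e-04 in the edgeR test) and -2.66 for ENSG00000239920 (adjusted p = 3.29e-07 in the edgeR test). The other recomputed log2 fold changes of the members kept their direction and side of the threshold (128 values with all libraries of the comparison and 90 with 1 left out), and the other differences in shares, which have no threshold, kept their sign (10 and 55 values). The cause of the changes was not tested.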
